A study of Mus musculus with 6 samples.

Results

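The genes described here make cholesterol and fatty acids or control that synthesis. They were a fixed list of 29 mouse genes, matched through their Entrez gene IDs, and all 29 were found among the 24454 genes of the table. The list held 18 enzymes of the route from acetyl-CoA to cholesterol, 5 genes for SREBP factors and their regulators, the sterol carrier gene Stard4, and 5 genes of fatty acid synthesis. The cells were leukaemic blasts sorted from the bone marrow of NSG mice, hosts that lack their own T, B and NK cells. The Stat3β TG blasts (3 libraries) grew from fetal liver cells of C57BL/6 mice carrying both an Mx1-Cre recombinase and a Stat3β transgene, and the WT blasts (3 libraries) from those of wild-type littermates. Cells of both genotypes carried the MLL-AF9 fusion, brought in by a retrovirus. The protocol, which is the same for all 6 samples, gives poly(I:C) at 4 weeks after transplantation, to switch on Cre and with it the transgene, and sorting at 6 weeks. Mx1-Cre answers to interferon in many cell types of the body. The labels do not say whether the wild-type littermates carried Mx1-Cre. No label ties the 3 replicates of a genotype to different donors, and the spread behind each p may therefore be partly technical.

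Cholesterol synthesis starts with the joining of acetyl-CoA units and runs through mevalonate, squalene and lanosterol. Fatty acid synthesis draws on the same cytosolic acetyl-CoA. Both are governed by the SREBP factors, which SCAP escorts from the endoplasmic reticulum to the Golgi when sterols are scarce and which INSIG proteins hold back when sterols are plentiful. SREBP-2 (Srebf2) acts chiefly on sterol genes and SREBP-1c (from Srebf1) chiefly on fatty acid genes. Growing blasts need both products for membranes.

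Sterol genes and fatty acid genes leaned in opposite directions between Stat3β TG and WT blasts, but no member passed the test. Values are normalized counts, and the test was limma on log2(normalized count + 1), adjusted over the 12642 genes tested, all 29 members among them. Of the 18 sterol enzymes 15 were higher in Stat3β TG (median log2 fold change 0.32), and all 5 fatty acid genes were lower (median -0.41). Against the WT 1 library alone both medians were negative, at -0.18 for the sterol enzymes and -0.19 for the fatty acid genes. The opposite lean thus rested on WT 2 and WT 3. Over all 29 members 18 were higher, against 51.4% of all genes tested, whose median was 0.01. Limma called 0 of the 29 members at an adjusted p under 0.05, as it called 0% of all genes tested, and the smallest adjusted p of a member was 0.668. At an unadjusted p under 0.05 there were 3 members by limma, against 6.1% of all genes, and they were Fdft1 (higher, as 3.56% of all genes) and Srebf1 and Scd2 (lower, as 2.54%). Of the 29 intervals (95%), 26 included 0. By edgeR 0 members were called, with 2 at an unadjusted p under 0.05, against 6.15% of all genes. By DESeq2 0 members were called, against 0.134% of all genes, with 3 at an unadjusted p under 0.05, against 7.67%.

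**Figure D1:**
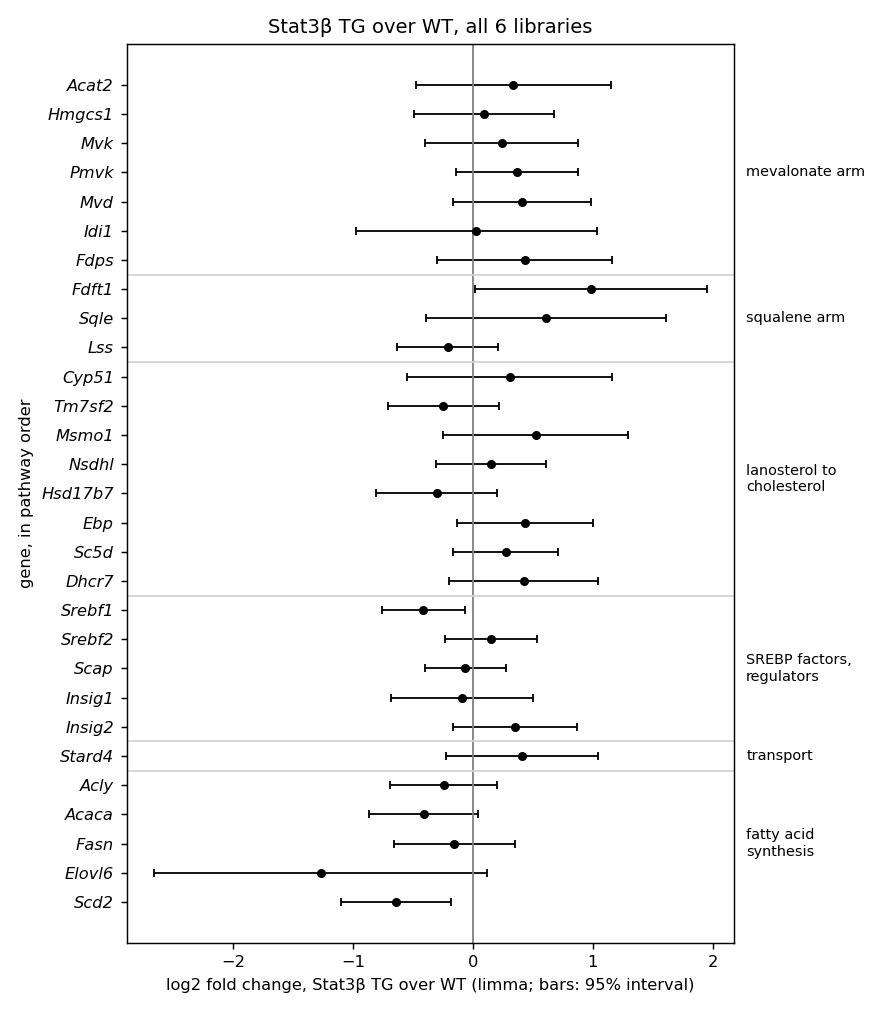
Stat3β TG over WT on the log2 scale for each of the 29 genes in pathway order (points, limma on log2(normalized count + 1); bars, 95% interval; n = 3 libraries in each genotype). Estimates run from -1.27 (Elovl6) to 0.98 (Fdft1), and the intervals of Fdft1, Srebf1 and Scd2 are the ones that leave out 0.

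The 3 WT libraries differed widely from each other in these genes. Summed over the 18 sterol enzymes, the Stat3β TG libraries 1 to 3 had 16208, 17132 and 17156 normalized counts, against 18945, 11885 and 11779 in WT 1 to 3. WT 1 thus had the highest sum of all 6 libraries and WT 2 and WT 3 the lowest. The 5 fatty acid genes summed to 26276, 20406 and 18874 in Stat3β TG, against 24463, 29140 and 28734 in WT. Here WT 2 and WT 3 were highest and WT 1 lay inside the Stat3β TG range. The fatty acid sum divided by the sterol sum was 1.62, 1.19 and 1.10 in Stat3β TG, against 1.29, 2.45 and 2.44 in WT. These sums weigh abundant genes most, Acly and Fasn above all.

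Gene by gene the same division was seen. In 12 of the 18 sterol enzymes WT 2 and WT 3 both lay below all 3 Stat3β TG libraries while WT 1 lay within or above their range, an arrangement found in 17.9% of all genes tested. The 6 others were Hmgcs1, Idi1, Lss, Tm7sf2, Nsdhl and Hsd17b7. With Srebf2, Insig2 and Stard4 the arrangement held in 15 of the 29 members, and in 0 of the 5 fatty acid genes. WT 1 was the highest of the WT libraries in 15 of the 18 sterol enzymes, against 39.2% of all genes, and the lowest in 4 of the 5 fatty acid genes, against 38.3%. Members that act in 1 pathway share their libraries, so these counts describe the libraries and are not independent of each other.

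**Figure D2:**
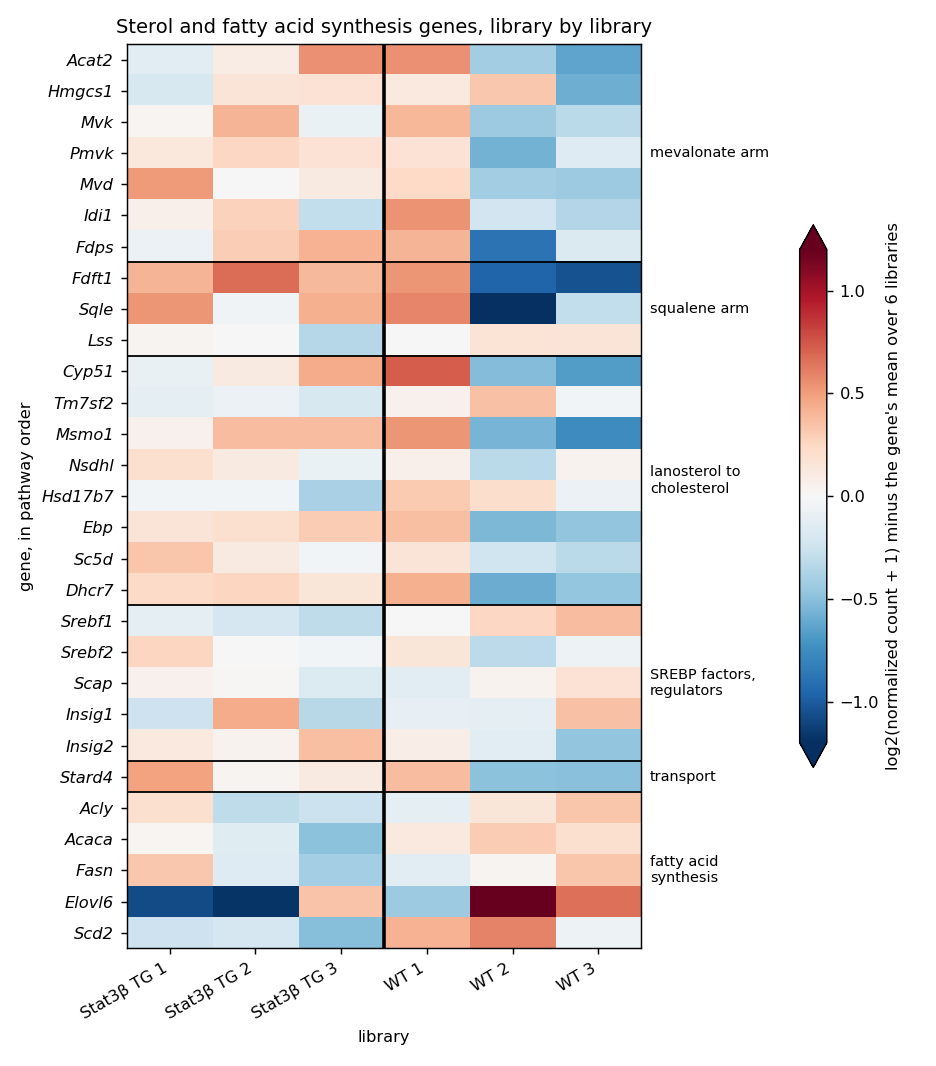
Level of each gene in each library, as log2(normalized count + 1) minus the mean of that gene over the 6 libraries (red above, blue below; colours stop at 1.2 in each direction). Libraries run across, with Stat3β TG left of the thick line and WT right of it. Most sterol enzymes are red or pale in Stat3β TG and WT 1 and blue in WT 2 and WT 3, while Srebf1 and the fatty acid genes are mostly red in WT 2 and WT 3.

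Across the whole table, too, WT 1 stood closer to Stat3β TG. The leading principal component took up 47.4% of the variance, and on it the Stat3β TG libraries lay between -31.4 and -16.3, WT 1 at -38.3 and WT 2 and WT 3 at 64.4 and 49.7. Recovered reads numbered 24733256 to 51934498 per library in Stat3β TG and 21809788 to 26805344 in WT. Stat3, the gene whose short splice form the transgene encodes, was at 11129, 9846 and 8034 in Stat3β TG, against 8058, 16112 and 10879 in WT, and these values do not separate the splice forms. All 12 blast markers were present in every library, among them Hoxa9 at 7444 to 8848 in Stat3β TG and 7147 to 9288 in WT. The 12 summed to 146474, 161403 and 205212 in Stat3β TG, against 175002, 120863 and 170663 in WT 1 to 3. Of these 8 were higher in Stat3β TG and 4 lower. The 12 monocyte and macrophage markers summed to 71949 to 141055 in Stat3β TG, against 84762, 62507 and 58640 in WT 1 to 3, and 9 of the 12 were higher. The 12 neutrophil markers summed to 388915 to 573473 in Stat3β TG, against 377864, 108992 and 313320 in WT 1 to 3, and 12 of the 12 were higher. The blast, monocyte and neutrophil sums were thus each higher in WT 1 than in WT 2 and WT 3, as was the sterol sum. Their part in the result was not tested. The 10 proliferation markers summed to 89390 to 97781 in Stat3β TG and 80404 to 115071 in WT, with the highest value in WT 1. Of the 10, 4 were higher in Stat3β TG and 6 lower. In 4 of those lower the groups did not overlap, against 4.92% of all genes tested. At an unadjusted p under 0.05 by limma 3 were lower, against 2.54% of all genes. The part of proliferation in the result was not tested. The 6 eosinophil and basophil markers summed to 5174 to 9186 in Stat3β TG, against 40158, 10249 and 30670.4 in WT 1 to 3. WT 1 was highest here, as in the sterol sum, but WT 2 and WT 3 also lay above all Stat3β TG libraries. Of the 5 that could be tested 2 were higher in Stat3β TG and 3 lower, and their part in the result was not tested. The 4 adipocyte markers, which would mark a fat cell that makes lipid at a high rate, summed to at most 4.68 in Stat3β TG and 4.35 in WT, and Plin1 and Cidec were at 0 in all 6 libraries. The 6 T and NK cell markers were low, with WT 2 and WT 3 the lowest as in the sterol sum, at 154, 88.7 and 102 in Stat3β TG, against 145, 42.0 and 8.44 in WT 1 to 3. All 3 that could be tested were higher in Stat3β TG (median log2 fold change 1.22), while Cd3e was at 0 in all 6 libraries, and their part in the result was not tested. Sex-linked genes differed as well. The Y-linked Ddx3y was at 3163, 3146 and 2943 in Stat3β TG, against 23.9, 4959 and 29.6 in WT, and Eif2s3y, Kdm5d and Uty were likewise high in all Stat3β TG libraries and WT 2 and low in WT 1 and WT 3. The sex signal thus differed among the WT libraries but not among the Stat3β TG libraries. WT 2 therefore did not come from the same lone donor as WT 1 and WT 3, and whether pooled donors were shared is not given. The part of sex in the result was not tested. In sorted bulk cells a smaller share of cells with a transcript and less of it per cell cannot be told apart.

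The mevalonate arm joins acetyl-CoA and builds isoprenoid units, and all 7 of its members had higher estimates in Stat3β TG. Hmgcs1, which makes HMG-CoA, stood at 1339.9, 1708 and 1723 in Stat3β TG, against 1662, 1918 and 1019 in WT. The groups overlapped throughout, with WT 2 the highest and WT 3 the lowest of the 6, and the log2 fold change was 0.09 (SE 0.25, limma adjusted p = 0.900). Fdps, which makes farnesyl diphosphate, was at 1738, 2242 and 2437 in Stat3β TG, against 2418, 985 and 1621 in WT. WT 1 stood inside the Stat3β TG range and WT 2 and WT 3 below it. Acat2, the cytosolic thiolase, the kinase genes Mvk and Pmvk, and the decarboxylase gene Mvd had log2 fold changes of 0.24 to 0.41. Pmvk was even across the Stat3β TG libraries, at 850.3 ± 35.7, against 673 ± 169 in WT (SD, n = 3 each). Idi1, the isomerase of isopentenyl diphosphate, was low in every library, at 33.7 to 50.5 in Stat3β TG and 32.4 to 60.9 in WT. Its log2 fold change of 0.03 changed sign with the method, to -0.026 by edgeR, -0.030 by DESeq2 and -0.021 after quantile normalization.

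The promoters of the genes are shown because 12 of the 18 sterol enzymes followed a common order of libraries. SREBP factors are known to act with NF-Y and SP1 at sterol promoters. A link between motif matches and levels was not tested. RefSeq windows (GRCm38.p6, 250 bases before to 50 after the start) were at hand for 24 of the 29 members, and not for Fdps, Fdft1, Sqle, Stard4 and Scd2. The sterol regulatory element core TCACNCCAC, searched on both strands, matched in 1 member, Hmgcs1, against 1.39% of the 10108 tested genes with a window. Only this form of the element was searched, and variant forms would be missed. The NF-Y box CCAAT, which reads ATTGG on the other strand, matched in 20 of the 24, against 43.3%. At least 2 matches were held by 11 members, against 16.8%, and at least 4 by Hmgcs1, Mvk and Nsdhl, against 2.18%. The GC box GGGCGG matched in 20 of the 24, against 67.1%. The 4 members with no CCAAT were Acat2, Scap, Acaca and Elovl6. Hmgcs1 and Nsdhl were outside the common order of libraries. Lss, Tm7sf2, Hsd17b7, Srebf1, Insig1, Acly and Fasn hold CCAAT and were lower in Stat3β TG, while the other members with CCAAT were higher. The 250 bases before the start are printed for Hmgcs1, which holds the element core, and, chosen after the matches and values were seen, for Mvk and for Ebp, a gene called without WT 1. Capitals mark CCAAT on either strand and, in Hmgcs1, also the element core.
Hmgcs1 (chr13:119690101-119690350, plus strand): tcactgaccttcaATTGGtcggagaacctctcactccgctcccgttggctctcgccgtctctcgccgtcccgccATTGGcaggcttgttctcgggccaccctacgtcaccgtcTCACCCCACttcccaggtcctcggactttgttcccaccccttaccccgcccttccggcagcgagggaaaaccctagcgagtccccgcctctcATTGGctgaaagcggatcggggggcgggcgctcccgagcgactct
Mvk (chr5:114444019-114444268, plus strand): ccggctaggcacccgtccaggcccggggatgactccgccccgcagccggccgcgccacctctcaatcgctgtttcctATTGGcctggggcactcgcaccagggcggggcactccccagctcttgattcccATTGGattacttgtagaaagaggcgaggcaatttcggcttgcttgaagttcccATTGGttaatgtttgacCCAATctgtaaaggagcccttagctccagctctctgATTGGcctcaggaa
Ebp (chrX:8193513-8193762, minus strand): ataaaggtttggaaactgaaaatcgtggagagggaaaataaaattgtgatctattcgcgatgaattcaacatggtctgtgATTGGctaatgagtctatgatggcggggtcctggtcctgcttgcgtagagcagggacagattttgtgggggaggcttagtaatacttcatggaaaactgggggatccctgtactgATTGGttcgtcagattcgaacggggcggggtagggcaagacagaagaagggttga
In Mvk, 4 of the 5 boxes read ATTGG, and each began 53 bases after the one before it. The 50 bases around neighbouring boxes were identical at 15 to 20 positions. A match here is a run of letters and not a measured binding site.

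**Figure D3:**
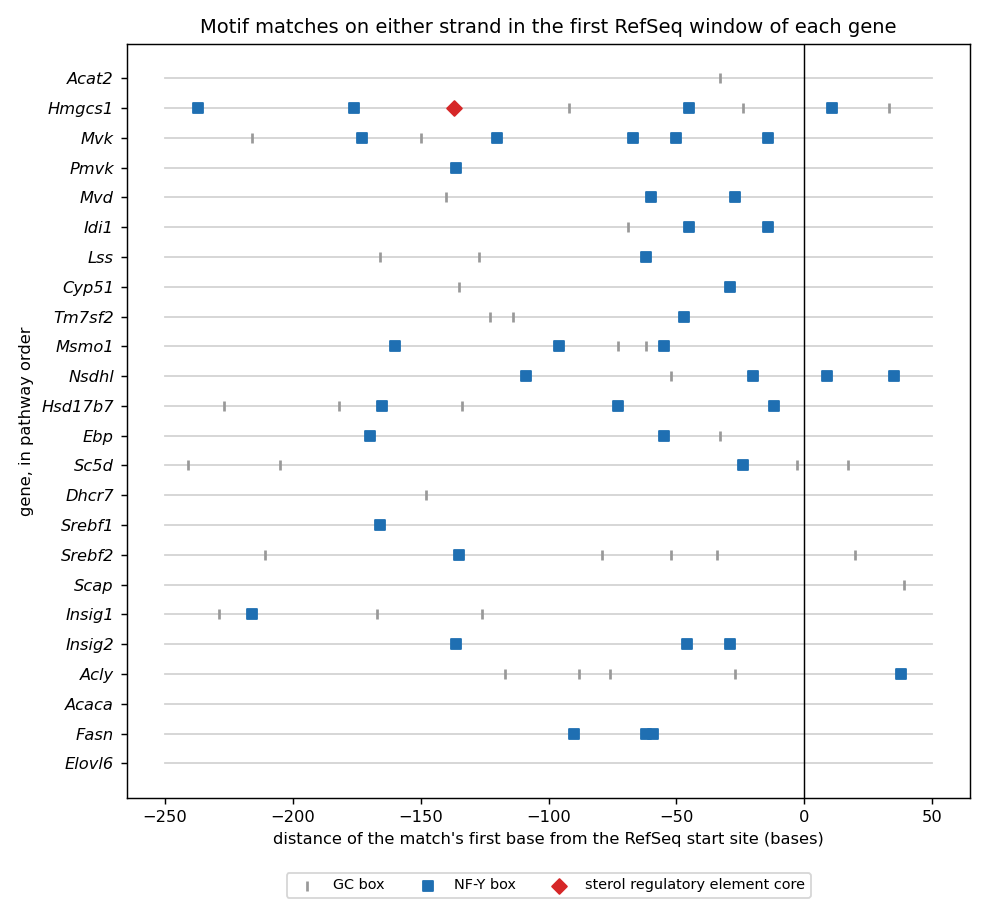
Matches to the 3 motifs on either strand in the first RefSeq window of each of 24 members, by the distance in bases of the match from the start site (0). Blue squares are NF-Y boxes, grey ticks GC boxes and the red diamond the sterol regulatory element core, which lies in Hmgcs1. The row of Mvk shows 5 NF-Y boxes, and those of Acaca and Elovl6 show no match.

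The squalene arm follows. Fdft1, squalene synthase, which commits the route to sterols, had 592, 710.4 and 584 normalized counts in Stat3β TG, against 644, 227 and 215 in WT. WT 2 and WT 3 were far below every other library and WT 1 was inside the Stat3β TG range. The log2 fold change was 0.98 (95% interval 0.02 to 1.95; limma adjusted p = 0.668), at means of 629 ± 71.0 in Stat3β TG and 362 ± 244 in WT (SD, n = 3 each). Of the Fdft1 exons 18.3% lie opposite exons of Ctsb, a lysosomal protease gene, and the handling of strand is not given in the sources used here. Ctsb was at 21661, 22294 and 22363 in Stat3β TG, against 22949, 18849 and 19537 in WT, so it too was lowest in WT 2 and WT 3, by far less in proportion (log2 fold change 0.12).

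Sqle, the squalene epoxidase that is known as a control step of the route, was at 644, 433 and 599 in Stat3β TG, against 672, 194 and 363 in WT. WT 1 was the highest of the 6 libraries and WT 2 the lowest, and the log2 fold change was 0.61 (SE 0.43, limma adjusted p = 0.676). Lss, which folds epoxysqualene into lanosterol, went the other way, at 695 ± 96.4 in Stat3β TG and 800 ± 47.9 in WT (SD, n = 3 each), and its groups overlapped.

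From lanosterol to cholesterol 6 of 8 members had higher estimates in Stat3β TG, with a median log2 fold change of 0.29. Ebp, the sterol isomerase, was at 2203, 2269 and 2453 in Stat3β TG, against 2554, 1362 and 1431 in WT. The gap between WT 1 and the other WT libraries was wider than the whole Stat3β TG range, and the log2 fold change was 0.43 (SE 0.25, limma adjusted p = 0.668). Dhcr7, which carries out the last reduction to cholesterol, showed the same order, at 1413, 1442 and 1329 in Stat3β TG, against 1616, 796 and 874 in WT. Its log2 fold change was 0.42 (SE 0.27, limma adjusted p = 0.673). Cyp51, the lanosterol demethylase, had 790.4, 903 and 1139.9 in Stat3β TG, against 1389, 586 and 525 in WT, and Msmo1, the methyl sterol oxidase, 763, 954 and 952 in Stat3β TG, against 1064, 501 and 438 in WT. In both genes WT 1 exceeded every Stat3β TG library. Sc5d, the desaturase that follows EBP, was at 1299 ± 169 in Stat3β TG and 1081 ± 198 in WT (SD, n = 3 each). Nsdhl, a decarboxylating dehydrogenase, was nearly level, at 648 ± 60.4 in Stat3β TG and 588 ± 84.6 in WT (SD, n = 3 each).

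Tm7sf2 and Hsd17b7 were lower in Stat3β TG. Tm7sf2, a sterol C14 reductase, had 460.5, 473 and 435 in Stat3β TG, against 514, 635 and 485 in WT. Every WT library was above every Stat3β TG library, by a narrow margin, and the log2 fold change was -0.25 (SE 0.20, limma adjusted p = 0.696). Of its exons 12.1% are shared with Vps51 on the same strand, which was level at 2486 to 2619 in Stat3β TG and 2454 to 2563 in WT. Hsd17b7, the 3-keto reductase of the route, was at 426 ± 57.3 in Stat3β TG and 525 ± 69.4 in WT (SD, n = 3 each).

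**Figure D4:**
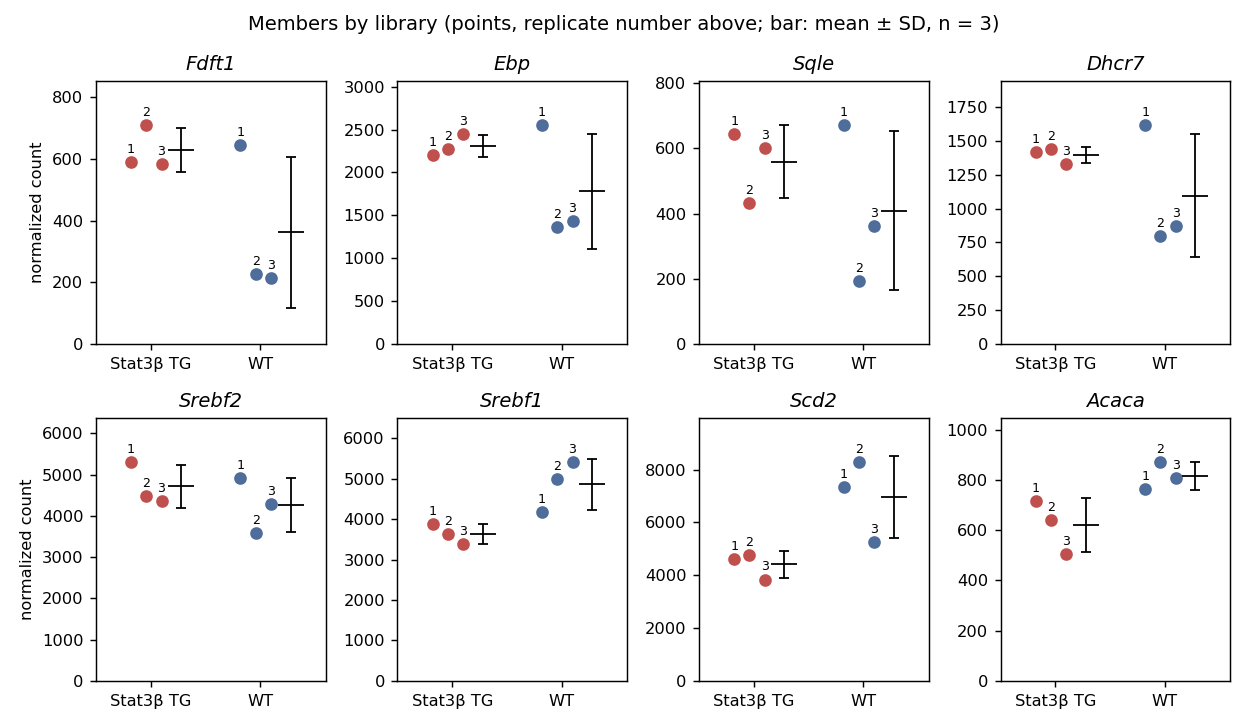
Normalized counts of 8 members in each library (points; the replicate number stands above each) with the mean ± SD of the genotype (n = 3), Stat3β TG in red and WT in blue, each axis from 0. In Fdft1, Ebp, Sqle and Dhcr7, WT 1 lies beside the Stat3β TG libraries and WT 2 and WT 3 lie below them. In Srebf1, Scd2 and Acaca all 3 WT libraries lie above all 3 Stat3β TG libraries.

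The genes of the factors themselves were read next. Srebf1 was at 3881, 3632 and 3388 in Stat3β TG, against 4185, 4990 and 5426 in WT. The groups did not overlap, and WT 1 was the WT library nearest to Stat3β TG. The log2 fold change was -0.42 (95% interval -0.76 to -0.07; limma adjusted p = 0.668), which is 1.33-fold more in WT than in Stat3β TG, at 4867 ± 630 in WT (SD, n = 3). Gene-level counts do not separate the SREBP-1a and SREBP-1c transcripts. Srebf2 was at 5317, 4476 and 4360 in Stat3β TG, against 4915, 3591 and 4278 in WT, with a log2 fold change of 0.15 and a standard error of 0.17 (limma adjusted p = 0.758). Within a library, Srebf1 divided by Srebf2 was 0.730, 0.812 and 0.777 in Stat3β TG, against 0.851, 1.39 and 1.27 in WT. WT 2 and WT 3, the libraries with the lowest sterol sums, were those in which Srebf1 exceeded Srebf2; this ratio was looked at after the values were seen and has no test.

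Genes of the SREBP escort and anchors differed less. Scap was at 3154, 3074 and 2701 in Stat3β TG, against 2777, 3132 and 3431 in WT, with a log2 fold change of -0.06 (95% interval -0.40 to 0.28). Insig1, itself a known SREBP target, was at 749.6, 1219 and 707 in Stat3β TG, against 835, 822 and 1141 in WT. Its highest value was in Stat3β TG 2 and the groups overlapped fully (log2 fold change -0.09, limma adjusted p = 0.903). Insig1 therefore did not share the order of the sterol enzymes. Insig2, the second anchor gene, was at 572, 543 and 679 in Stat3β TG, against 558, 481 and 378 in WT, with a log2 fold change of 0.35 and a standard error of 0.22 (limma adjusted p = 0.673). Stard4, which carries sterol between membranes, was at 1169, 857 and 902 in Stat3β TG, against 1087, 596 and 594 in WT. Its WT values split as those of the sterol enzymes did, and the log2 fold change was 0.41 (limma adjusted p = 0.675).

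Fatty acid synthesis genes were lower in Stat3β TG in 5 of 5, and here WT 1 did not undo the difference for every gene. Scd2, a stearoyl-CoA desaturase that puts the double bond into fatty acids, was at 4607, 4776 and 3839 in Stat3β TG, against 7339, 8302 and 5253 in WT. No WT library reached down to the Stat3β TG range, and WT 3 was the nearest. The log2 fold change was -0.64 (95% interval -1.10 to -0.18; limma adjusted p = 0.668), 1.56-fold more in WT, at 4407 ± 499 in Stat3β TG and 6965 ± 1559 in WT (SD, n = 3 each). Its near relative Scd1 was barely present, at 1.23 to 10.04 in Stat3β TG and 0 to 8.12 in WT. DESeq2 called Scd2 once WT 3 was left out (log2 fold change -0.84, DESeq2 adjusted p = 0.0273), in a comparison that called 0.263% of all genes, and with all libraries its DESeq2 adjusted p was 0.307.

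Acaca, acetyl-CoA carboxylase, the committed step of fatty acid synthesis, was at 718, 639 and 503 in Stat3β TG, against 765, 873 and 809 in WT. The groups did not overlap, though Stat3β TG 1 came near WT 1, and the log2 fold change was -0.41 (SE 0.20, limma adjusted p = 0.668). Acly, which supplies the cytosolic acetyl-CoA, was at 11932, 8478 and 8722 in Stat3β TG, against 9633, 11560.5 and 13179 in WT. Fasn, the synthase, was at 8842, 6347 and 5335 in Stat3β TG, against 6451, 7200.3 and 8903 in WT. Stat3β TG 1 was high among its group in both genes, the groups overlapped, and the log2 fold changes were -0.24 (limma adjusted p = 0.689) and -0.16 (limma adjusted p = 0.810). Elovl6, which lengthens palmitate, was the most variable member, at 177, 165 and 475 in Stat3β TG, against 275, 1203 and 590 in WT. Its log2 fold change of -1.27 had an interval from -2.66 to 0.12 (limma adjusted p = 0.668), and Stat3β TG 3 was above WT 1.

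In 4 members the groups did not overlap, namely Tm7sf2, Srebf1, Acaca and Scd2, and all 4 were lower in Stat3β TG. This was 4 of 29, where 10.8% of all genes tested did not overlap and 4.92% did so with Stat3β TG lower. No member had groups that did not overlap with Stat3β TG higher, where 5.87% of all genes did.

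Setting the same Stat3β TG libraries against different WT libraries gave different pictures of the sterol genes. Against WT 2 and WT 3 the median log2 fold change of the 18 sterol enzymes was 0.59, with 15 higher, and limma called 2 members, Fdft1 (2.82-fold, adjusted p = 0.0389) and Ebp (1.65-fold, adjusted p = 0.0497), where it called 2.37% of all genes. Both rose in that comparison, as did 1.6% of all genes. DESeq2, run without WT 1 as an addition after the data were seen, called 9 of the 29 members, where it called 16.1% of all genes. Those it called higher were Fdft1, Sqle, Cyp51, Msmo1, Ebp, Dhcr7 and Stard4, where it called 8.79% of all genes higher. Those it called lower were Srebf1 (adjusted p = 0.00905) and Elovl6 (adjusted p = 0.0133), where it called 7.34% lower. Without WT 1, 21 of the 29 members did not overlap between groups, against 46.1% of all genes, 15 of them higher in Stat3β TG, against 23.8%, and 6 lower, against 22.4%. In the same comparison 15 members were at an unadjusted p under 0.05 by limma, against 26.8% of all genes. Without Stat3β TG 1, 8 members did not overlap, against 19.2% of all genes. Leaving out any other library, limma called 0 members, against 0.04% of all genes without WT 2 and 0% otherwise. DESeq2 then called 0 members but for Scd2 without WT 3, against 0.0961%, 0.144% and 0.28% of all genes without Stat3β TG 1, 2 and 3, and 0.304% without WT 2.

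Against WT 1 alone, a lone library assumed to vary like the others, the median of the sterol enzymes was -0.18, with 2 of 18 higher, and 0 members were called by limma, where it called 0.0648% of all genes. Fdft1 stood at -0.041, Ebp at -0.15 and Sqle at -0.28 on the log2 scale. Scd2 (-0.74), Acaca (-0.32) and Srebf1 (-0.21) kept the sign they had with all libraries, while Acly and Fasn (0.053) came near 0. The median of the 5 fatty acid genes was -0.19 against WT 1 alone and -0.45 against WT 2 and WT 3.

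**Figure D5:**
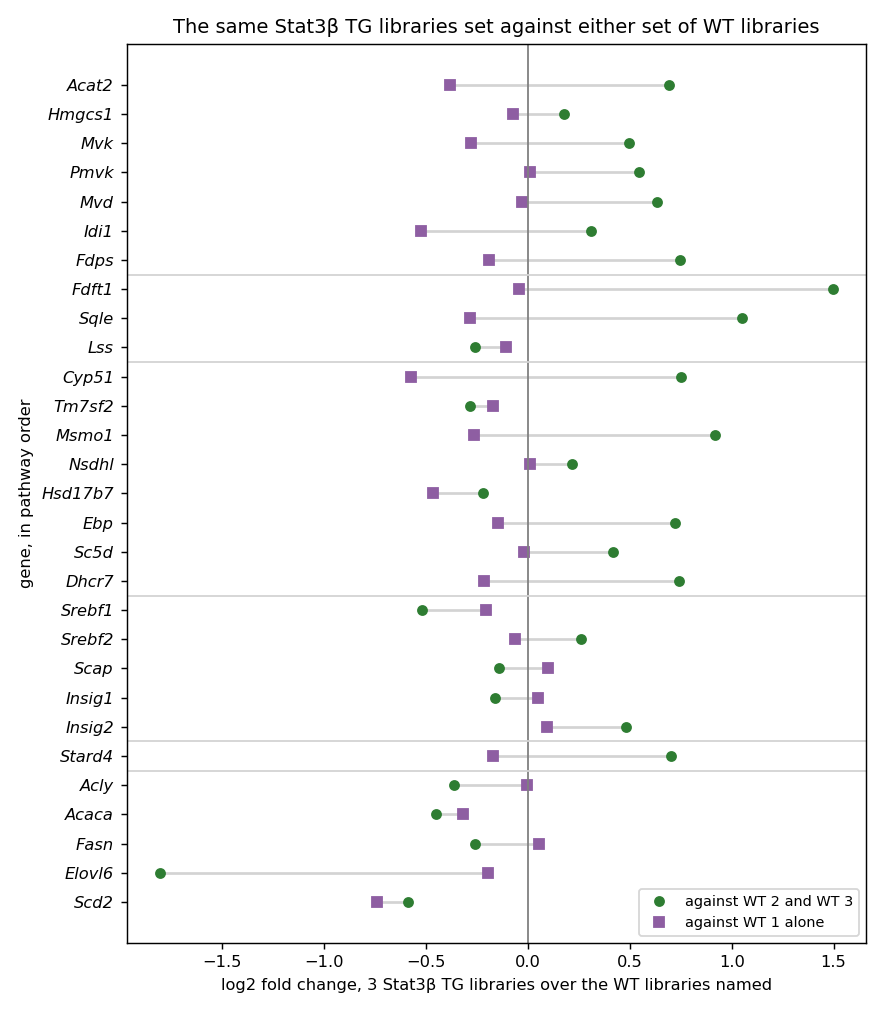
Log2 fold change of the 3 Stat3β TG libraries over WT 2 and WT 3 (circles) and over WT 1 alone (squares), for the 29 genes in pathway order. The circles of most sterol enzymes lie right of 0, farthest for Fdft1, while their squares lie at or left of 0. For Srebf1, Acaca and Scd2 both symbols lie left of 0.

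Levels per kilobase of annotated exon ordered the members on another scale. In Stat3β TG the highest were Acly at 1839 normalized counts per kilobase, Ebp at 999 and Scd2 at 807, against 2170.4, 772 and 1275 in WT. Idi1 was the lowest at 12.1 in Stat3β TG and 12.2 in WT, followed by Acaca at 36.3 in Stat3β TG and 47.8 in WT. Exon lengths count every annotated isoform, so genes with many isoforms come out low. Some of these levels are uncertain because reads may be lost to or gained from copies. Transcripts of 7 members had a stretch of at least 200 bases with at least 95% identity to another gene. Among these were 4 pseudogenes of Fdps, 2 of Idi1 and 1 of Acaca that matched 64.3% of its transcript. The pseudogene Gm6781 matched 33.8% of the Fdft1 transcript. Acat3 matched 65.6% of Acat2 but was at 10.7 to 15.4 normalized counts in Stat3β TG and 8.71 to 14.9 in WT. Tcp1 matched 19.8% of Acat2 and was far higher than Acat2, at 8238 to 9499 in Stat3β TG and 9438 to 13293 in WT. Of the Fdps exons 26.7% are shared with Gm43738 on the same strand.

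The wider lipid network gave no call by limma with all libraries. Among 15 tested genes of isoprenoid and other sterol steps 11 were higher in Stat3β TG (median log2 fold change 0.09). Aacs, which activates acetoacetate for lipid synthesis, was at 3011, 2661 and 2618 in Stat3β TG, against 2474, 1509 and 1613 in WT, and its groups did not overlap (log2 fold change 0.60). Coq2, Fntb and Pdss1 had log2 fold changes of 0.26, 0.24 and -0.29. Among 22 other tested genes of fatty acid synthesis, elongation and desaturation 13 were higher, with a median of 0.20. This lay on the other side of 0 from the median of the 5 fatty acid members. Those 5 also include an elongation gene, Elovl6, and a desaturase gene, Scd2. The dehydratase gene Hacd2 was at 1143, 1123 and 973 in Stat3β TG, against 934, 444 and 601 in WT (log2 fold change 0.77), and Hacd3 and Elovl5 were at 0.42 and 0.25. Acacb, the mitochondrial carboxylase gene, was low, at 29.6 to 44.2 in Stat3β TG and 47.4 to 102 in WT, without overlap.

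Of 17 genes of SREBP processing and INSIG-linked degradation 6 were higher and 11 lower (median -0.04). In 7 the groups did not overlap, 2 higher and 5 lower in Stat3β TG, where 10.8% of all genes tested did not overlap, 5.87% higher and 4.92% lower. Syvn1, an ubiquitin ligase of the endoplasmic reticulum, was at 3626, 4168 and 3534 in Stat3β TG, against 2739, 2940.2 and 2758 in WT (log2 fold change 0.42). Erlin1 and Erlin2, which sit in sterol-rich domains of that membrane, were lower without overlap, with log2 fold changes of -0.29 and -0.42, and the ligase gene Rnf139 likewise (-0.44). Of 26 tested genes of sterol sensing, efflux, esterification and transport 15 were higher (median 0.06). Smpdl3a, a phosphodiesterase gene known as a target of the sterol-sensing LXR receptors, was at 8006, 6596 and 4197 in Stat3β TG, against 2699, 2753 and 4145 in WT. Its groups did not overlap, though Stat3β TG 3 was close to WT 3 (log2 fold change 0.95). Soat1, which esterifies cholesterol, was at 3915, 3631 and 4773 in Stat3β TG, against 3451, 3132 and 1649 in WT (log2 fold change 0.64). Cyp27a1, a sterol 27-hydroxylase gene, had a log2 fold change of 1.14, carried by the 1569 of Stat3β TG 3 beside 404 and 586 in the other Stat3β TG libraries and 242 to 435 in WT. Gramd1c, a low gene at 73.6 to 124 in Stat3β TG and 107 to 344 in WT, had -1.04. Without WT 1 limma called 1 gene in 3 of these 4 lists, Aacs (adjusted p = 0.0472), Hacd2 (adjusted p = 0.0484) and Gramd1b (adjusted p = 0.0475), and none in that of SREBP processing, where it called 2.37% of all genes. Gramd1b, whose product moves sterol from the plasma membrane, was at 1916, 1807 and 1109 in Stat3β TG, against 1062, 4574 and 3740.2 in WT, so WT 1 lay below all Stat3β TG libraries. With all libraries each gene named from these lists had a limma adjusted p of at least 0.668.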

How the data were processed

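RNA sequencing of 3 Stat3β TG and 3 WT libraries of sorted blasts was analysed, grouped by sample title. The submitters' processing notes name GRCm38 (mm10), FastQC, STAR and DESeq2; no source used here gives versions, the counter, strand handling or the annotation release. The authors deposited 1 table of normalized counts, a signal per gene. In each library 100% of values were whole multiples (tolerance 0.001) of 1 step, taken as the worth of 1 read, so reads were recovered. A count of 0 allows up to 3 reads, 1.69 to 4.22 normalized counts, for counting error only. Every pair of libraries differed beyond sampling noise (chi-square per gene 65.9 to 225). Symbols and coordinates came from RefSeq (GRCm38.p6), for 24376 of 24454 IDs, and exon lengths, overlaps and copies from GENCODE M21 transcripts.

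Genes with at least 10 normalized counts in at least 3 libraries were tested with limma 3.58.1 (R 4.3.3; pseudocount 1, trend, robust moderation, two-sided, Benjamini-Hochberg, threshold 0.05); the pseudocount shrinks fold changes of low genes. Alternatives were edgeR 4.0.16 (quasi-likelihood, TMM) and DESeq2 1.42.0 on recovered reads, quantile normalization, a pseudocount of 5, other filters, each library left out and a replicate block. Only the limma, edgeR and DESeq2 fits were tried on simulated counts. Those counts had the same scatter for all genes and no library set apart, unlike the WT libraries here. Members, lists and named genes were chosen with earlier results of these data known: all 29 members were named, with every library for those at an unadjusted p under 0.05, without overlap, or set as regulators or key enzymes; Ebp, Fdps, Cyp51, Msmo1, Stard4, Acly and Elovl6 were added after their values were seen. Of each pathway list the 4 genes of smallest p were named.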

Additional observations from a re-analysis of the deposited data

How the results depend on the processing

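No member was past the threshold with all 6 libraries under edgeR, DESeq2, quantile normalization, a pseudocount of 5, no filter, a filter of 50, or the replicate block. Under these, Idi1 alone changed sign (-0.026 by edgeR, -0.030 by DESeq2, -0.021 after quantile normalization). The stricter filter left Idi1 out. Genes of the whole table past the threshold numbered 0, but 17 by DESeq2. Leaving out each library in turn gave 0 to 296 such genes, 0 to 2 members past it (2 without WT 1), 1 to 15 members at an unadjusted p under 0.05 (15 without WT 1, against 26.8% of all genes), and 4 to 21 without overlap (21 without WT 1, against 46.1% of all genes, and 8 without Stat3β TG 1, against 19.2%). DESeq2 gave 0 to 9 members (9 without WT 1, 1 without WT 3). The median log2 fold change of the 5 SREBP genes was -0.14 to 0.062. Signs changed for Hmgcs1 (-0.18 to 0.28), Idi1 (-0.14 to 0.31), Scap (-0.14 to 0.0098), Insig1 (-0.34 to 0.062) and Fasn (-0.36 to 0.0080). Against WT 1 alone 8 genes of the table passed, 1 member was at an unadjusted p under 0.05, 6 members were higher, and the medians were -0.17 over all members, -0.18 over sterol enzymes and 0.050 over SREBP genes. There 18 members changed sign: Acat2 -0.38, Hmgcs1 -0.073, Mvk -0.28, Mvd -0.031, Idi1 -0.53, Fdps -0.19, Fdft1 -0.041, Sqle -0.28, Cyp51 -0.57, Msmo1 -0.27, Ebp -0.15, Sc5d -0.017, Dhcr7 -0.21, Srebf2 -0.065, Stard4 -0.17, Scap 0.10, Insig1 0.050 and Fasn 0.053. The cause was not tested. The replicate block gave 0 members past the threshold; same-numbered libraries had deviations correlated at 0.14, 0.10 and -0.11, so the numbers were not taken to pair them. Leaving out a library leaves 2 in a group. The lowest member value was 23 reads.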

Other observations

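Ebp and Nsdhl are the X-linked members. Xist, the RNA of the silent X chromosome, was at 19.1 to 71.6 normalized counts in Stat3β TG, against 42699.5, 835 and 45196 in WT 1 to 3. Ebp was at 2203 to 2453 in Stat3β TG, against 2554, 1362 and 1431 in WT. WT 1 and WT 3, which shared a high Xist value, were far apart in Ebp, and WT 2 was lowest, close to WT 3. Nsdhl was at 582 to 701 in Stat3β TG, against 642, 490 and 630.4 in WT. Xist set WT 2 apart from WT 1 and WT 3, and Nsdhl, lowest in WT 2, divided the WT libraries in the same way. Ebp set WT 1 apart from WT 2 and WT 3. The part of sex in these values was not tested.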
